A study of Mus musculus with 8 samples.

Results

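The 32 genes described here make up the unfolded protein response and the integrated stress response as they can be read from RNA. They were taken by symbol from a list of 14 ER chaperones and folding enzymes, 3 genes of ER-associated degradation, 5 transcription factors and 10 targets of the transcription factor Atf4. All 32 had probes on the array, and all 32 were well above background on 8 of 8 arrays, among 19778 genes tested. The tumours came from female C57BL/6JTgMISIIR-TAg mice, which develop ovarian tumours because the MISIIR (Amhr2) promoter drives SV40 T antigen in cells of the reproductive tract. The transgene was shared by both groups. When tumours measured about 500 mm3, 4 mice received vehicle (hypermellose and Tween 80) and the other 4 received AZD1480, an inhibitor of the kinases JAK1 and JAK2, at 30 mg/kg in the same vehicle. Tumour tissue was taken 6 h later, so the comparison asks how stress genes stood in the tumours shortly after JAK inhibition.

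Proteins that fold poorly in the endoplasmic reticulum (ER) activate the sensors Ire1, Perk and Atf6. Ire1 splices Xbp1 RNA, and together with cleaved Atf6 the spliced factor switches on chaperones, folding enzymes and the machinery that returns misfolded proteins to the cytosol for degradation. Perk is also a kinase of the integrated stress response: like Gcn2, Pkr and Hri, it phosphorylates eIF2, which lowers protein synthesis in general while translation of Atf4 goes up. Atf4 in turn activates genes of amino acid synthesis and transport and the stress factor Ddit3 (CHOP). Tumours that secrete much protein or run short of amino acids or glucose are known to use both arms.

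Promoters of genes of the 2 arms can carry different short elements, and these are described here by their letters. RefSeq promoters (GRCm38.p6, 250 bases before to 50 after the start) were at hand for 28 of the 32 genes. The ER stress response element (ERSE, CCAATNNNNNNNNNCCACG), read on both strands, was present in 7 of the 12 chaperone genes with a promoter. The share was 0.137% over all 27025 genes with a promoter. Its letters lay between 212 and 47 bases before the start. In the lines that follow each element has its fixed letters in capitals, with 10 bases on either side, written 5′ to 3′ on the gene's strand. Calr, Creld2 and the nearer element of Hsp90b1 hold it on the opposite strand, so that it reads CGTGG first.
Hspa5, chr2:34772015-34772053 (+ strand): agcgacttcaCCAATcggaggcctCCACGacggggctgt
Dnajc3, chr14:118937817-118937855 (+ strand): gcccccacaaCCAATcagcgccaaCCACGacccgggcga
Pdia6, chr12:17266481-17266519 (+ strand): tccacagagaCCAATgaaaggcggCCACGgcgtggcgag
Canx, chr11:50325790-50325828 (- strand): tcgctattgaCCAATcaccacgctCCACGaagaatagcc
Hsp90b1, chr10:86705628-86705666 (- strand): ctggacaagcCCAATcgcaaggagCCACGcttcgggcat
Hsp90b1, chr10:86705523-86705561 (- strand): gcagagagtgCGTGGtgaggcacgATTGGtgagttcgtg
Calr, chr8:84847065-84847103 (- strand): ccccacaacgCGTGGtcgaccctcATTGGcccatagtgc
Creld2, chr15:88819510-88819548 (+ strand): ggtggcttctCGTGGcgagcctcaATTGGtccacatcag

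Around the element of Hspa5, which encodes BiP, the main ER chaperone, the promoter holds further CCAAT letters and a TATA-like stretch close to the start. The stretch shown ends at the base before the start.
Hspa5, chr2:34771980-34772089 (+ strand): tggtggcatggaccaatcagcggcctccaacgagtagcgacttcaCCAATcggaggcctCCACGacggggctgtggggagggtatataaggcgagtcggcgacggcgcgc

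The shorter ERSE-II element (ATTGGNCCACG) was found in Herpud1 and, after the start, in Dnajb11, against 0.0444% of all genes with a promoter. Herpud1, an ER membrane protein of ER-associated degradation, also carries the element read by Atf4 with its C/EBP partners (CARE, TGATGNAA), on the opposite strand. Both are in capitals in its promoter.
Herpud1, chr8:94386307-94386428 (+ strand): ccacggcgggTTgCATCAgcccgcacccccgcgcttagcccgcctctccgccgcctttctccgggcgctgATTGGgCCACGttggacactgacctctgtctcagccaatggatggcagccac

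CARE was present in 4 of the 9 Atf4 targets with a promoter and in 0 of the 12 chaperones, against 4.51% of all genes with a promoter. The 4 targets were Asns, Chac1 and Vldlr, with CARE before the start, and Trib3, with CARE after it. The Asns element lay 23 to 16 bases before the start, that of Chac1 193 to 186 and that of Vldlr 200 to 193 bases before it.
Asns, chr6:7693215-7693242 (- strand): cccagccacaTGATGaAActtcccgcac
Chac1, chr2:119351039-119351066 (+ strand): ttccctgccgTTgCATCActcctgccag
Vldlr, chr19:27216810-27216837 (+ strand): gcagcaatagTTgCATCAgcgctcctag

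The UPRE letters TGACGTGG were found in 0 of the 28 genes, against 0.714% of all genes with a promoter, which says only that this window does not hold them. ERSE and ERSE-II share CCACG, and a match describes letters, not binding.

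**Figure D1:**
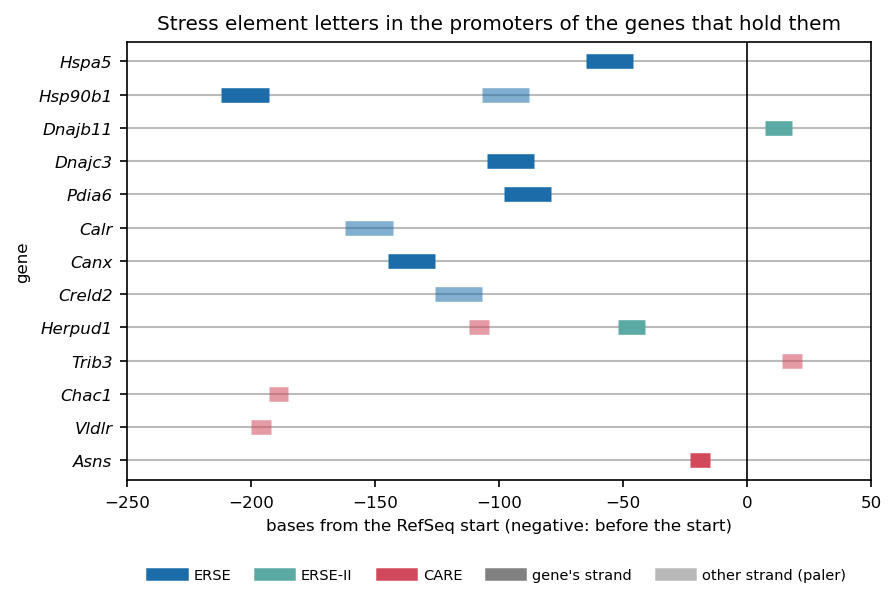
Position of each element, in bases from the RefSeq start (horizontal axis), in the 13 genes that hold one; blocks are ERSE, ERSE-II and CARE, paler where the element reads on the other strand. The ERSE blocks all lie before the start, while the elements of Dnajb11 and Trib3 lie after it.

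The arrays were of 1 colour (Cy3), and values are log2 processed intensities relative to each array's 75th percentile. A value of 1 more is therefore a doubling, and levels are compared between arrays, never between genes. The arrays lay on 2 slides, each with 2 tumours of either group: replicates 1 and 2 on slide 1, replicates 3 and 4 on slide 2. The 75th percentile itself was 4705.7 to 5794.9 intensity units on slide 1 and 1587.2 to 2782.6 on slide 2, and no member was saturated on any array. All 12 epithelial markers listed, such as Epcam, Krt8 and Pax8, passed the background filter. AZD1480 replicate 1 stood apart from the other tumours: 28.5% of all genes tested were highest on it, and ciliated cell markers (9 of 9 measured) averaged -5.36 log2 units there relative to their means over the 8 arrays. Differences without it are given beside the genes concerned and, for all 32 members, in the plot of group differences.

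AZD1480 did not separate the stress genes from their level in vehicle tumours by the test used. At an adjusted p under 0.05 (limma, Benjamini-Hochberg over all genes), 0 of 32 members passed, against 0.0% of the 19778 genes. At an unadjusted p under 0.05, 0 of 32 members passed, against 3.46% (685 genes). The smallest unadjusted p of a member was 0.0564 (Sesn2), and adjusted limma p-values ran from 0.974 to 0.995. The mean was lower in AZD1480 for 24 of the 32 members, against 43.5% of all genes, and the median log2 difference was -0.13 against 0.04. That count rests on few tumours: the number of members with a higher mean went from 8 to 15 without vehicle replicate 3, and also to 15 without vehicle replicate 4. The groups did not overlap in either direction for 1 of the 32 members, against 518 of all 19778 genes. That member was Herpud1, with all 4 treated tumours below all 4 controls, as for 1.41% of all genes.

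**Figure D2:**
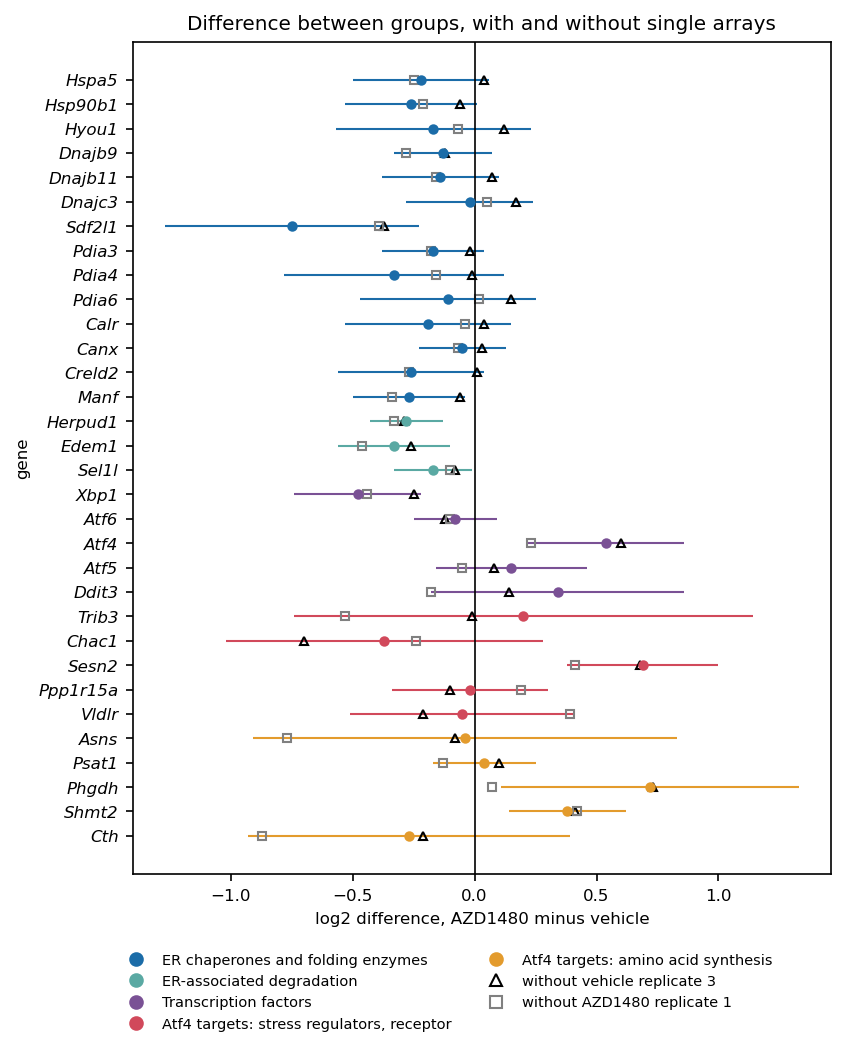
Log2 difference, AZD1480 minus vehicle, of the 32 genes (filled points, with 1 standard error on either side, 4 tumours a group), and the same without vehicle replicate 3 (triangles) or without AZD1480 replicate 1 (squares). The 14 chaperones all lie left of 0 with all arrays, and 6 of them do so without vehicle replicate 3.

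The ER chaperones and folding enzymes had group differences of 1 sign. All 14 had a lower mean in AZD1480, with differences between -0.75 and -0.02 and a median of -0.18, and none reached an unadjusted limma p below 0.186. In the order of replicates 1 to 4, which is kept throughout, Hspa5 stood at 4.59, 4.48, 5.73 and 5.04 in the vehicle tumours and at 4.82, 4.62, 4.79 and 4.74 in the treated ones. The treated tumours lay between the 2 low and the 2 high controls, so the groups overlapped. The difference was -0.22 ± 0.28 (SE, 4 a group), or 1.16-fold lower, with an adjusted p of 0.976 (limma).

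Hsp90b1, the ER form of Hsp90 (Grp94), stood at 4.85, 4.67, 5.79 and 5.50 in vehicle and at 4.80, 4.88, 5.13 and 4.98 in AZD1480. Vehicle replicates 3 and 4 were again the high tumours, and the difference was -0.26 ± 0.27. Manf, a secreted ER stress protein, read 2.18, 2.05, 3.00 and 2.34 in vehicle and 2.36, 2.19, 2.03 and 1.94 in AZD1480. Its difference was -0.27 ± 0.23, with vehicle replicate 3 alone well above the rest. Sdf2l1, a partner of the ER DnaJ proteins, had the largest difference of the role, -0.75 ± 0.52. Its values were 0.07, 0.16, 1.96 and 1.06 in vehicle and -1.01, 0.50, 0.53 and 0.23 in AZD1480. A treated tumour (replicate 1) stood low and a control (replicate 3) high, and the difference was -0.39 without the former and -0.37 without the latter.

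The other 10 chaperones had smaller or similar differences. For the disulphide isomerases, they were -0.17 for Pdia3, -0.33 for Pdia4 and -0.11 for Pdia6. The DnaJ co-chaperones of Hspa5 gave -0.13 for Dnajb9, -0.14 for Dnajb11 and -0.02 for Dnajc3. The glycoprotein chaperones Calr and Canx gave -0.19 and -0.05. Hyou1, a large Hsp70-like nucleotide exchange factor, gave -0.17, and Creld2, a disulphide isomerase-like ER stress protein, -0.26. Their standard errors lay between 0.18 and 0.45, and each of these differences was smaller than its standard error. Creld2 ran from 3.28 to 4.6 in vehicle and from 3.42 to 3.58 in AZD1480, Dnajb11 from 1.84 to 2.86 and from 2.01 to 2.14, and Dnajc3 from 0.41 to 1.46 and from 0.64 to 1.03. The treated range lay inside the control range for these 3, as it did for Hspa5. Pdia4 ran from 0.14 to 1.82 in vehicle and from 0.00 to 1.08 in AZD1480, and Calr from 2.31 to 3.63 and from 2.32 to 3.28. Dnajb9 was the reverse, with controls from 0.23 to 0.31 and treated tumours from -0.27 to 0.59.

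The uniform sign was not seen without a single control tumour. Vehicle replicate 3 had the highest value of the 8 arrays for 13 of the 14 chaperones, against 9.26% of all genes, and Dnajb9 was the exception, highest in AZD1480 replicate 1. With each gene centred on its own mean, the median of the 14 was -0.31, -0.34, 0.76 and 0.23 in the vehicle tumours and -0.17, -0.14, 0.04 and -0.10 in the treated ones. The 4 treated tumours thus lay close together (SD 0.09) inside the spread of the controls (SD 0.52). Without vehicle replicate 3, 6 of the 14 chaperones had a lower mean and the median difference was 0.02. Without AZD1480 replicate 1, 12 of 14 were lower and the median was -0.17. In RNA of whole tumours, fewer cells of a type and less RNA per cell cannot be told apart.

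**Figure D3:**
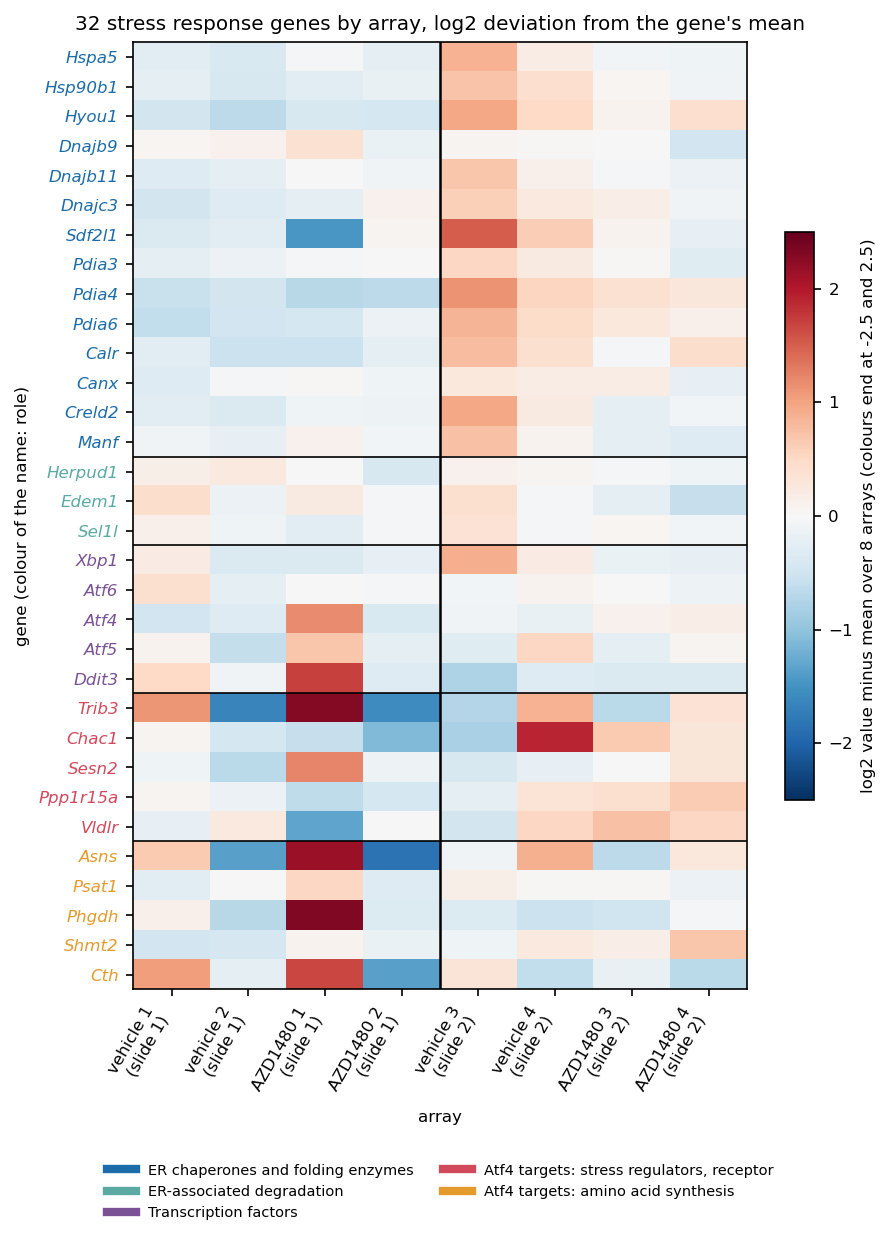
Log2 value of each of the 32 genes on each array (columns, slide 1 left of the line and slide 2 right of it) minus the gene's mean over the 8 arrays; red is above and blue below the mean, and names are coloured by role. The chaperone rows are reddest in vehicle replicate 3, and the Asns, Trib3 and Phgdh rows in AZD1480 replicate 1.

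Within the slides the chaperones took opposite signs. On slide 1, 12 of the 14 had a higher mean in AZD1480 (median 0.15), and on slide 2 all 14 had a lower one (median -0.50). Over all 19778 genes, 10902 were higher on slide 1 and 9316 lower on slide 2. Higher on slide 1 and lower on slide 2 at once were 12 of the 14, against 23.9% of all genes. For Hspa5, the difference was 0.18 on slide 1 and -0.62 on slide 2. The change of difference between slides (the limma interaction of slide and treatment, added after these values were seen) had a median of -0.69 over the chaperones. It passed at an adjusted p under 0.05 for 0 of 14 and at an unadjusted p under 0.05 for 0 of 14, against 0.0% and 1.5% of all genes. Slide 2 stood above slide 1 for 13 of the 14 with treatment held fixed (median 0.45), against 10072 of all 19778 genes (median 0.01). At an unadjusted limma p under 0.05 this held for 6 of 14, against 13.2% of all genes counted in either direction. At an adjusted p under 0.05 it held for 0, against 0.0%. Pdia4, Sdf2l1 and Hyou1 gave the largest values, 1.17 ± 0.17, 1.01 ± 0.39 and 0.99 ± 0.20.

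**Figure D4:**
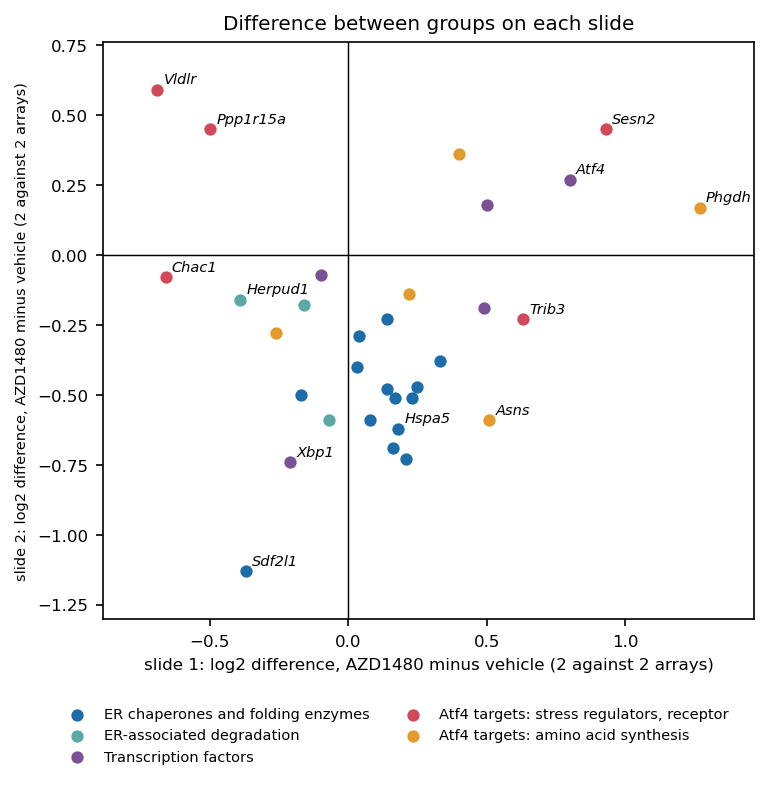
Log2 difference, AZD1480 minus vehicle, on slide 1 (horizontal) and slide 2 (vertical), 2 against 2 tumours on each; each point is a gene, coloured by role. Chaperones other than Pdia4 and Sdf2l1 fall at the lower right, higher in AZD1480 on slide 1 and lower on slide 2.

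The 3 members of ER-associated degradation had lower means in AZD1480 on both slides. The 12 further genes of that role did not share this: 6 were higher and 6 lower (median 0.03), and 9 of the 12 were higher on slide 1. Herpud1 read 1.77, 1.86, 1.72 and 1.68 in vehicle and 1.62, 1.21, 1.57 and 1.5 in AZD1480. The highest treated tumour (1.62) was below the lowest control (1.68). The difference was small, -0.28 ± 0.15 or 1.21-fold lower, with an unadjusted limma p of 0.0977 and an adjusted p of 0.974. It stayed between -0.33 and -0.19 when any array was left out, and it was -0.39 on slide 1 and -0.16 on slide 2. Unlike the chaperones, Herpud1 was not high in vehicle replicate 3, where it read 1.72.

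Edem1, a lectin-like protein that hands misfolded glycoproteins to degradation, read 0.62, 0.03, 0.57 and 0.14 in vehicle and 0.39, 0.13, -0.08 and -0.41 in AZD1480. The groups overlapped, and the difference was -0.33 ± 0.23. Sel1l, the adaptor of the Hrd1 ubiquitin ligase, read -0.41, -0.64, -0.16 and -0.56 in vehicle and -0.82, -0.55, -0.48 and -0.60 in AZD1480, a difference of -0.17 ± 0.16. The median of the 3 was -0.16 on slide 1 and -0.18 on slide 2.

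Among the transcription factors, Xbp1 and Atf4 had means on opposite sides. Xbp1, which drives chaperone and degradation genes once spliced, read 3.32, 2.75, 4.03 and 3.31 in vehicle and 2.75, 2.90, 2.94 and 2.90 in AZD1480. Of the controls, 3 were above every treated tumour and vehicle replicate 2 was level with the lowest. The difference was -0.48 ± 0.26, with an unadjusted limma p of 0.106 and an adjusted p of 0.974, and it was -0.25 without vehicle replicate 3. Splicing of Xbp1 was not analysed here. Atf6, the membrane-bound sensor and factor, differed by -0.08 ± 0.17.

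Atf4 RNA read 3.91, 4.07, 4.30 and 4.20 in vehicle and 5.58, 4.00, 4.50 and 4.55 in AZD1480. Treated replicates 1, 3 and 4 were above every control and replicate 2 was not. The difference was 0.54 ± 0.32, with an unadjusted limma p of 0.135 and an adjusted p of 0.974, and it was 0.23 without AZD1480 replicate 1. Ddit3, a pro-apoptotic factor of prolonged stress, read -0.12, -0.70, -1.38 and -0.94 in vehicle and 1.10, -0.93, -0.98 and -0.98 in AZD1480. A single treated tumour was high, while the other 3 sat close together among the controls. Its difference was 0.34 ± 0.52, and it changed sign to -0.18 without that tumour. Atf5, a relative of Atf4 that is likewise controlled by translation, differed by 0.15 ± 0.31, and by -0.05 without that tumour.

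The Atf4 targets showed no common direction, with 5 of 10 higher and 5 lower in AZD1480 and a median difference of 0.01. Their spread between tumours was wide. The range over the 8 arrays had a median of 2.53 log2 units, and it reached 2 in 6 of the 10, against 1 of the 14 chaperones and 30.1% of all genes. The highest value lay in AZD1480 replicate 1 for 6 of the 10 targets, against 28.5% of all genes. Without that tumour the median difference was -0.03.

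The stress regulators among the targets differed from each other. Sesn2, which restrains mTORC1 when amino acids are short, read -0.63, -1.20, -0.91 and -0.73 in vehicle and 0.70, -0.65, -0.50 and -0.22 in AZD1480. Treated replicates 1, 3 and 4 were above every control, and replicate 2 was just below the highest control. The difference was 0.69 ± 0.31, or 1.62-fold, positive on both slides (0.93 and 0.45) and 0.41 without AZD1480 replicate 1. Its unadjusted limma p of 0.0564 was the smallest of all 32 members, and the adjusted p was 0.974.

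Trib3, a pseudokinase that feeds back on Atf4, read 0.44, -2.31, -1.40 and 0.21 in vehicle and 1.63, -2.24, -1.33 and -0.31 in AZD1480. Both groups held low and high tumours, 15.4-fold apart at the extremes, and the difference was 0.20 ± 0.94, or -0.53 without AZD1480 replicate 1. Chac1, which degrades glutathione, read -0.26, -0.77, -1.13 and 1.58 in vehicle and -0.91, -1.43, 0.32 and -0.02 in AZD1480. Vehicle replicate 4 was the high tumour there, not AZD1480 replicate 1, and the difference was -0.37 ± 0.65, or -0.24 without the latter.

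Ppp1r15a (Gadd34), the phosphatase subunit that restores protein synthesis, differed by -0.02 ± 0.32 over all tumours and by 0.19 without AZD1480 replicate 1. It read 2.28, 2.08, 2.00 and 2.56 in vehicle and 1.58, 1.78, 2.61 and 2.86 in AZD1480. Both treated tumours of slide 1 lay below all controls and both of slide 2 above them, a difference of -0.50 and then 0.45. It was the only member with an unadjusted p under 0.05 for the interaction (0.95 ± 0.37, with a limma p of 0.0462 and an adjusted p of 0.979), against 1.5% of all genes. Vldlr, a lipoprotein receptor, gave -0.69 and 0.59 on the slides and -0.05 ± 0.46 over all (0.39 without AZD1480 replicate 1), with controls from 3.06 to 4.03 and treated tumours from 2.19 to 4.25. Its lowest tumour was AZD1480 replicate 1, where Asns, Trib3 and Phgdh were highest.

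The enzymes of amino acid synthesis held the widest range of all members, that of Asns. Asns, which makes asparagine and is a standard read-out of Atf4, read 0.19, -1.81, -0.55 and 0.43 in vehicle and 1.70, -2.30, -1.12 and -0.19 in AZD1480. The highest and the lowest tumour were both treated, 16.1-fold apart, and the difference was -0.04 ± 0.87, or -0.77 without AZD1480 replicate 1. Asns and Trib3 placed the tumours in nearly one order. AZD1480 replicate 1 was highest for both, followed by vehicle replicates 4 and 1 in either order and AZD1480 replicate 4, and vehicle replicate 2 and AZD1480 replicate 2 were lowest.

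Phgdh, the first enzyme of serine synthesis, read 2.13, 1.32, 1.68 and 1.48 in vehicle and 4.32, 1.68, 1.51 and 1.98 in AZD1480. Only treated replicate 1 was above the controls, and the difference of 0.72 ± 0.61 was 0.07 without it. Cth, which makes cysteine, read -3.27, -4.54, -4.00 and -4.94 in vehicle and -2.65, -5.68, -4.50 and -5.00 in AZD1480. It too was highest and lowest in treated tumours, and the difference of -0.27 ± 0.66 became -0.87 without AZD1480 replicate 1. The size of the Cth difference also depended on the processing: it was -0.05 with normexp background correction and -0.4 after quantile normalization. Psat1, the next enzyme of serine synthesis after Phgdh, differed by 0.04 ± 0.21, and by -0.13 without AZD1480 replicate 1.

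Shmt2, a mitochondrial enzyme of serine and one-carbon metabolism, did not follow that pattern. It read 0.34, 0.40, 0.70 and 1.05 in vehicle and 0.90, 0.64, 0.99 and 1.5 in AZD1480. The groups overlapped, yet the difference of 0.38 ± 0.24 was alike on both slides (0.40 and 0.36) and between 0.22 and 0.52 when any array was left out. Its unadjusted limma p was 0.159 and the adjusted p 0.974.

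**Figure D5:**
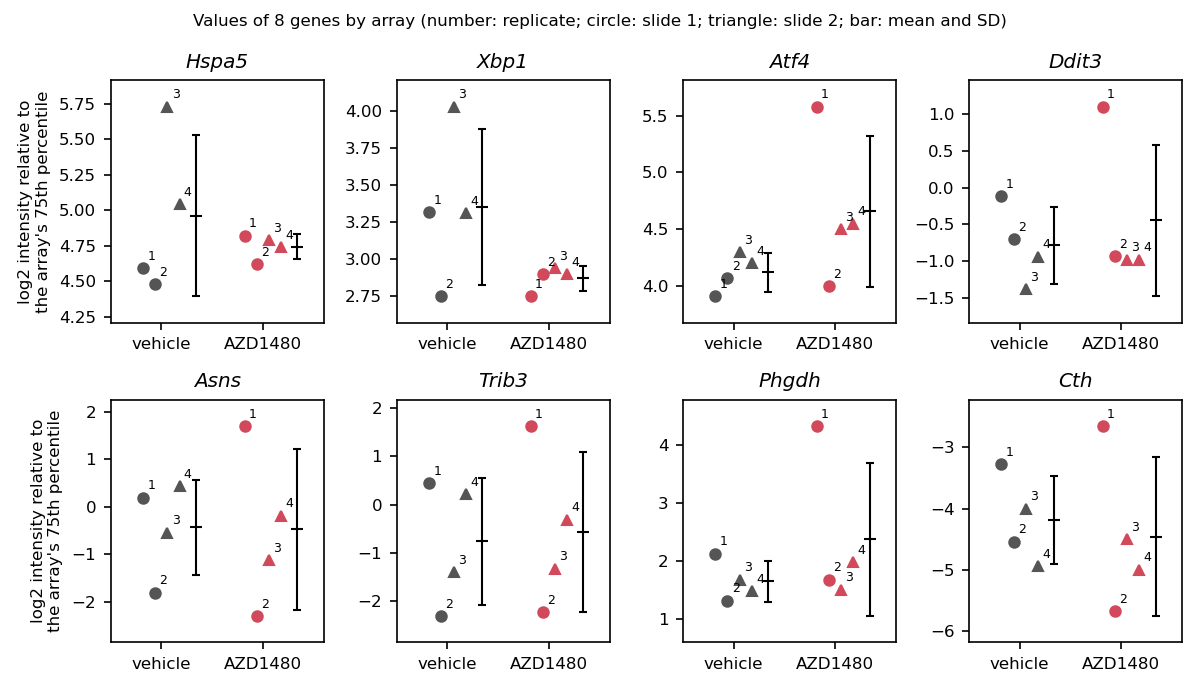
Log2 intensity relative to the array's 75th percentile (vertical axis, scaled for each gene) of 8 genes in each tumour; numbers are replicates, circles slide 1, triangles slide 2, and the bar the group's mean and SD (4 tumours). Hspa5 and Xbp1 are highest in vehicle replicate 3, and the other 6 genes in AZD1480 replicate 1.

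Set side by side by centred median, the chaperones were highest in vehicle replicate 3 and the pooled Atf4 targets in AZD1480 replicate 1. Vehicle replicate 4 was above the mean for both. The Atf4 target roles parted in AZD1480 replicate 1. The median there was 1.67 for amino acid synthesis and -0.58 for the stress regulators and receptor, although Sesn2 and Trib3 were highest in that tumour. The centred median of the Atf4 targets was 0.06, -0.43, -0.28 and 0.29 in vehicle and 0.86, -0.39, 0.03 and 0.30 in AZD1480. Subtracting that of the chaperones left 0.37, -0.09, -1.04 and 0.06 in vehicle and 1.03, -0.24, -0.02 and 0.40 in AZD1480. Vehicle replicate 3, with high chaperones, was the lowest and AZD1480 replicate 1, with a high pooled Atf4 target median, the highest. The groups overlapped. The median difference between groups of the Atf4 targets exceeded that of the chaperones by 0.19, and the same quantity was -0.07 without vehicle replicate 3. With Atf5 and Ddit3 counted as targets, the excess was 0.28.

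The wider pathway likewise gave no gene that passed after adjustment. Of 83 further genes listed, 81 passed the background filter, 49 of them with a higher and 32 with a lower mean in AZD1480 (median 0.08 against 0.04 over all genes, of which 11181 of 19778 had a higher mean). At an adjusted limma p under 0.05 none of the 81 passed, and at an unadjusted p under 0.05 only Slc7a5 did, against 3.46% of all genes. Slc7a5, the large neutral amino acid transporter Lat1, read -1.0, -0.90, -0.92 and -0.72 in vehicle and 0.50, -0.56, -0.71 and 0.00 in AZD1480. The lowest treated tumour (-0.71) was just above the highest control (-0.72), and groups were apart in this direction for 1.21% of all genes. The difference was 0.69 ± 0.28, with an unadjusted limma p of 0.0366 and an adjusted p of 0.974, and it was 0.46 without AZD1480 replicate 1. A second kept probe of Slc7a5 gave a larger difference, 1.18, with an unadjusted limma p of 0.000694 in the fit over probes. The mean over both probes gave 0.93, with an adjusted limma p of 0.964. The partner chain Slc3a2 differed by 0.38 ± 0.18, and by 0.24 without AZD1480 replicate 1.

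Among the sensors and eIF2 kinases, Eif2ak2 (Pkr), which interferon induces, had the smallest p. It read -1.18, -1.11, -0.85 and -0.70 in vehicle and -1.28, -1.23, -1.56 and -1.28 in AZD1480. All treated tumours were below all controls, as for 1.41% of all genes, with a difference of -0.38 ± 0.17, an unadjusted limma p of 0.0572 and an adjusted p of 0.974. Perk (Eif2ak3) differed by -0.04 ± 0.20. Ddit4, an inhibitor of mTORC1 that stress and hypoxia induce, read 3.18, 1.90, 2.53 and 2.92 in vehicle and 4.66, 2.69, 3.54 and 3.56 in AZD1480. Treated replicates 1, 3 and 4 were above every control, and the difference was 0.98 ± 0.45, with an unadjusted limma p of 0.0592 and an adjusted p of 0.974. Without AZD1480 replicate 1 it was 0.63.

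In the other roles the genes with the smallest p were Erlec1 at 0.54 ± 0.36, Ero1a at 0.40 ± 0.36, Creb3l2 at 0.38 ± 0.35, Yars1 at 0.34 ± 0.19 and Psph at 0.19 ± 0.17. None of these reached an unadjusted limma p under 0.05. Without AZD1480 replicate 1, Ero1a was at 0.04, Creb3l2 at 0.06 and Psph at 0.13, while Erlec1 (0.52) and Yars1 (0.36) moved little. Among the 14 further genes of folding and translocation, 10 had a lower mean, against 43.5% of all genes, with a median of -0.03. On slide 2, 12 of them were lower, against 9316 of 19778. Without vehicle replicate 3, 5 of the 14 had a lower mean, against 43.4% of all genes, and the median was 0.04. The 8 amino acid transporters had a median of 0.30 and the 12 aminoacyl-tRNA synthetases, which charge tRNAs with amino acids, one of 0.13. Without AZD1480 replicate 1 these medians were 0.13 and 0.11, against 0.02 over all genes.

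Some markers of other cells and states stood high or low in the tumours that set these values, and not only there. In vehicle replicate 3, adipocyte markers (5 of 7 measured, Adipoq and Cidec not passing the filter) averaged 5.17 above their means. Their summed level ran from -2.19 to 5.11 (log2) in vehicle and from -2.98 to -1.64 in AZD1480. Granulosa and luteal markers (6 of 10 measured) averaged 2.5 above their means in that tumour, 3.40 in AZD1480 replicate 1 and 2.19 in vehicle replicate 1. In vehicle replicate 1 the centred median was -0.31 for the chaperones and 0.06 for the Atf4 targets. Fshr, Cyp19a1, Cyp11a1 and Lhcgr did not pass the filter, and the summed level ran from 3.54 to 5.89 in vehicle and from 3.39 to 7.23 in AZD1480.

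Hypoxia genes (12 of 13 measured, without Ca9) averaged 0.82 above their means in AZD1480 replicate 1, where the pooled Atf4 target median was also highest. The group difference was 1.17 for Vegfa and 0.02 for Slc2a1. In AZD1480 the hypoxia genes had a lower mean in 1 of 12, against 43.5% of all genes, and a median difference of 0.61. Their mean difference was 0.59 on slide 1 and 0.63 on slide 2. Their summed level ran from 5.74 to 6.31 in vehicle and from 5.91 to 7.18 in AZD1480. Epithelial markers (12 of 12 measured) had a lower mean in AZD1480 for 11 of 12, against 43.5% of all genes, with a median of -0.55. Their mean difference was -1.01 on slide 1 and -0.16 on slide 2. Relative to their means over the 8 arrays they averaged 1.22 in vehicle replicate 1, 0.86 in vehicle replicate 3 and -0.84 in AZD1480 replicate 1, and their summed level ran from 5.33 to 6.95 in vehicle and from 5.11 to 6.28 in AZD1480. Macrophage markers (11 of 12 measured, without Cd163) averaged -1.25 in AZD1480 replicate 1, and their summed level ran from 4.98 to 5.18 in vehicle and from 3.84 to 5.98 in AZD1480. The part of these cells and states in the stress gene values was not tested.

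A second kept probe gave a close value for most members that had one. The difference was 0.73 against 0.54 for Atf4, 0.80 against 0.72 for Phgdh, -0.12 against -0.27 for Cth and -0.23 against -0.05 for Vldlr. It was -0.09 against -0.13 for Dnajb9, -0.22 against -0.11 for Pdia6 and 0.10 against 0.04 for Psat1. Probe positions follow the array files on mm9. The Hspa5 probe lies at chr2:34631913-34631972, the Herpud1 probe at chr8:96919117-96919176, the Atf4 probe at chr15:80087902-80087961 and the Asns probe at chr6:7625171-7625228. Exons of that build were not analysed here.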

How the data were processed

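Tumour RNA of 8 mice, 4 a group and 1 array a mouse per the labels, was measured on 1-colour Agilent arrays. The submitters' processing notes name Agilent Feature Extraction 9.5.3 as the scan reader. The deposited processed intensity had its background subtracted and was detrended within each array, per the file headers, with no scaling from array to array. A second table by the authors holds log2 values. Its columns share a median of 8.364 and follow the raw mean intensity. Its offset is unknown, and it served as an alternative.

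Here log2 processed intensities were centred on each array's 75th percentile. Probes well above background on at least 4 arrays were kept (28340 probes, 19778 genes), each gene by its brightest kept probe. Groups were compared with limma 3.58.1 (R 4.3.3; lmFit and eBayes, two-sided, Benjamini-Hochberg over all genes, threshold 0.05), tested on simulated data. The 4 arrays a group limit the precision. Slides were scanned apart and held both groups. Alternatives were normexp, quantile and median scaling, the deposited table, other filters, mean over probes, slide, replicate number and each array left out. Interaction and slide fits were added after the values were seen.

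Members, gene lists and markers were chosen with earlier results of these data known. Every member is named, with all values for up to 3 a role with the smallest unadjusted p and for Hspa5, Xbp1, Atf4, Ddit3 and Asns. Of the further pathway genes, those at an unadjusted p under 0.05 and the 1 with the smallest p of each role are named. The array values of Ppp1r15a, and Slc3a2 and Eif2ak3, were added after their values were seen. Promoters are RefSeq's on GRCm38.p6, and probe positions are on mm9 per the file headers. Protein sequences were not used here.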

Additional observations from a re-analysis of the deposited data

Results flagged for a closer look

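Within each group of 4 tumours, the 32 members were searched for a tumour whose gap to the nearest other exceeded Dixon's 95% critical value as a share of the group's range. Of 64 such groups 2 held one, and chance gives about 1 in 20. Both were AZD1480 replicate 1. Ddit3 read 1.10 there, against -0.98 to -0.93 in the other treated tumours. Phgdh read 4.32 there, against 1.51 to 1.98 in the others.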

How the results depend on the processing

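In every alternative run, 0 genes passed the adjusted limma threshold, so no call could be lost. The count at an unadjusted p under 0.05 ran from 451 to 1621 (685 with all arrays) when 1 array was left out: 451 without vehicle replicate 1, 453 without vehicle replicate 3 and 1621 without AZD1480 replicate 3. The number of members with a higher mean ran from 7 to 15, the chaperone median from -0.38 to 0.02, the Atf4 target median from -0.04 to 0.33 and their gap from -0.07 to 0.49. Same-numbered deviations from the group means correlated at 0.359, 0.356, 0.126 and -0.059, and unlike-numbered ones at -0.375 to 0.554. The same-numbered treated tumour correlated highest for vehicle replicates 1, 2 and 3. For vehicle replicate 4 it was AZD1480 replicate 3 (0.554). With the replicate block, 880 genes had an unadjusted p under 0.05 and the medians stayed at -0.18 and 0.01. Normexp, other scalings, filters and probe means kept the direction of the 40 named genes, except Psat1 (-0.01 after quantile normalization and -0.02 in the authors' deposited log2 table).

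Within slide 1, 21 members had a higher mean and the chaperone median was 0.15; within slide 2 it was -0.50. Signs turned within slide 1 for Hspa5 (0.18), Hsp90b1 (0.08), Hyou1 (0.14), Dnajb9 (0.04), Dnajb11 (0.23), Dnajc3 (0.33), Pdia3 (0.17), Pdia6 (0.25), Calr (0.03), Canx (0.14), Creld2 (0.21), Manf (0.16) and Asns (0.51), and within slide 2 for Atf5 (-0.19), Trib3 (-0.23), Ppp1r15a (0.45), Vldlr (0.59), Psat1 (-0.14), Creb3l2 (-0.13) and Psph (-0.13). Leaving out 1 array gave both signs for 19 genes: Hspa5 (-0.38 to 0.04), Hyou1 (-0.42 to 0.12), Dnajb9 (-0.28 to 0.01), Dnajb11 (-0.27 to 0.07), Dnajc3 (-0.18 to 0.17), Pdia6 (-0.33 to 0.15), Calr (-0.40 to 0.04), Canx (-0.17 to 0.03), Creld2 (-0.43 to 0.01), Atf6 (-0.18 to 0.03), Atf5 (-0.05 to 0.35), Ddit3 (-0.18 to 0.56), Trib3 (-0.53 to 0.76), Chac1 (-0.70 to 0.20), Ppp1r15a (-0.24 to 0.19), Vldlr (-0.30 to 0.39), Asns (-0.77 to 0.57), Psat1 (-0.13 to 0.15) and Cth (-0.87 to 0.14). The cause was not tested. The search of protein ends was not run. All members were well above background on 8 of 8 arrays.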
